A study of Mus musculus with 10 samples.

Results

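The insulin-like growth factor (IGF) axis was examined in KPN1.1 tumors from obese mice given liraglutide or vehicle. It comprised 10 genes chosen by symbol: the ligands Igf1 and Igf2, the receptors Igf1r and Igf2r, and the binding proteins Igfbp2, Igfbp3, Igfbp4, Igfbp5, Igfbp6 and Igfbp7. All 10 had a row among the 55401 gene identifiers of the count table, of which 35141 had at least 1 read count in some tumor. Of the 10 genes, 8 were abundant enough to be among the 17464 genes tested for treatment, and Igf2 and Igfbp2 were too low.

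Bulk RNA was sequenced from 10 tumors, 5 from mice injected intraperitoneally each day with liraglutide, an agonist of the GLP-1 receptor, at 0.2 μg per g of body weight, and 5 from mice given the vehicle, PBS. The KPN1.1 line derives from a mouse lung adenocarcinoma, and every tumor came from the same line. In every mouse 75000 of its cells were placed under the skin of the flank. All hosts were male C57BL/6J mice with diet-induced obesity, aged 7 to 17 weeks at injection, and tumors were taken between days 19 and 22. A frozen fragment of each tumor was used, so its RNA came from tumor cells and host stroma together. Fewer cells of one type and less RNA per cell cannot be told apart in such data. Total counts ran from 9927942 to 14480593 per tumor, and 3 counts, taken as the floor of detection, equaled 0.207 to 0.315 CPM, which are counts scaled to a library of 1000000. The first principal component held 48.7% of the variance and split the vehicle group, with vehicle tumors 1, 2 and 3 between −69.3 and −32.4 and vehicle tumors 4 and 5 at 38.5 and 39.3. Liraglutide tumors lay from −28.1 to 49.7 on it.

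IGF-1 and IGF-2 are small secreted proteins related to insulin that drive growth and survival through IGF1R, a receptor tyrosine kinase that signals through insulin receptor substrates, PI3K and AKT. IGF2R has no kinase and carries IGF-2 to lysosomes. The high-affinity binding proteins hold IGFs in blood and tissue and release them when cut by proteases, whereas IGFBP7 binds IGFs weakly and is deposited around blood vessels and secreted by many epithelial and stromal cells.

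The genes that encode these proteins are spread over the genome. On GRCm39, Igf1 lay at chr10:87693642-87772904 on the plus strand and Igf2 at chr7:142204503-142220694 on the minus strand. The receptor genes lay at chr7:67601518-67883416 (Igf1r, plus) and chr17:12901293-12988614 (Igf2r, minus). Igfbp2 (chr1:72863606-72891634, plus) and Igfbp5 (chr1:72897091-72914043, minus) were neighbors that point toward each other. Igfbp3 (chr11:7156086-7164179, minus) and Igfbp4 (chr11:98932064-98945218, plus) shared a chromosome without being neighbors. Igfbp6 lay at chr15:102052697-102057953 on the plus strand and Igfbp7 at chr5:77493130-77555931 on the minus strand. All 10 are protein-coding genes and were counted over their exons.

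The sequences just before the starts of Igfbp7 and Igfbp3 are shown because these 2 genes had the widest treatment differences of the tested members, in opposite directions. They come from RefSeq on GRCm38.p6 and are the 250 bases before the start on the gene's own strand, chr5:77408046-77408295 (minus) for Igfbp7 and chr11:7213924-7214173 (minus) for Igfbp3. Capitals mark the GC box, GGGCGG or its complement CCGCCC.
Igfbp7: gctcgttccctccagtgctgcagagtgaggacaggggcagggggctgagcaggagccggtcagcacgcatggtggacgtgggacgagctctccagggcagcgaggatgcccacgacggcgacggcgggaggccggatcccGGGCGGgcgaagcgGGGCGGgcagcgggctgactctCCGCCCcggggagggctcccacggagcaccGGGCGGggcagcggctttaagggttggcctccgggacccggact
Igfbp3: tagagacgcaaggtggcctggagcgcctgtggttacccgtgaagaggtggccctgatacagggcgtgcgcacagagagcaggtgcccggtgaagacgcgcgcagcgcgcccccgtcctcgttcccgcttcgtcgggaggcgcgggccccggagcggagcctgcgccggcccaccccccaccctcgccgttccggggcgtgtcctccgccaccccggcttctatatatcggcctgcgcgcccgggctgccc
Both are rich in CG dinucleotides, with 26 for Igfbp7 and 32 for Igfbp3 against a median of 6 over 32851 such windows. The Igfbp7 window held 4 GC boxes and the Igfbp3 window 0, and 32.74% of all windows held at least 1. Of the 14 windows of the 10 genes, 6 held a GC box, 2 a TATA box (TATAAA), 2 an E-box (CACGTG), 0 the cAMP response element (TGACGTCA) and 0 the FOXO core (GTAAACA), both strands searched. Over all windows, 12.37% held the TATA box, 6.02% the E-box, 1.55% the cAMP response element and 3.17% the FOXO core. The short core of the cAMP response element (TGACG), also found within the whole element, stood in 2 of the 14 and in 17.77% of all windows. A match is a description of the letters alone.

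The first question was how abundant each transcript was. Per kilobase of exon, Igfbp4 led with 292.5 CPM per kb over the 10 tumors and exceeded Igfbp3, at 178, in 9 of them. Igfbp3 exceeded Igfbp7, at 33.3, in all 10. The order of Igfbp7 and Igf2r, at 23.7, depended on the group. Igfbp7 was the higher in 1 of 5 vehicle tumors (means 21.1 and 21.5) and in 4 of 5 liraglutide tumors (means 45.6 and 25.9 CPM per kb). Igf1r stood at 8.39 and Igfbp5 at 3.48, and each was above the next gene in all 10. Igf1, at 1.19, was above Igfbp6, at 0.998, in 8 tumors. Igfbp2 was at 0.351 and Igf2 at 0.00374 CPM per kb. The most abundant transcripts of the axis in these tumors were thus those of binding proteins. The insulin receptor gene Insr stood at 11.9 CPM per kb, above Igf1r. In CPM these genes were close, with vehicle means of 149.6 for Insr and 152.7 for Igf1r and liraglutide means of 178.3 and 179. Their order per kb thus rests on the division by exon length, which was 19768 bases for Igf1r.

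Most of these genes did not separate the groups. In the quasi-likelihood test of edgeR, a Benjamini-Hochberg adjusted p under 0.05 was reached by 0 of 17464 genes (0%), and the smallest was 0.482. At an unadjusted p under 0.05, 694 genes were higher (3.97%) and 981 lower (5.62%) with liraglutide. DESeq2 called 45 genes at an adjusted p under 0.05, and 10 of the 4087 genes to which it gave an adjusted p were called higher (0.245%). limma-voom called 0. Of the 8 tested members, 5 were higher and 3 lower, and 2, Igf2r and Igfbp7, had an unadjusted p under 0.05, both higher. Among the same 8 genes with 1 tumor left out, the number was 1 without vehicle tumor 1, 2 or 4 or liraglutide tumor 1, 3 or 5, and 4 without vehicle tumor 5. Over all genes it moved too. Without vehicle tumor 5, 1086 of 17793 genes were higher and 1323 lower at this p. Without liraglutide tumor 5, 391 of 17680 were higher and 528 lower. The median log2 fold change of the 8 tested members was 0.17, against −0.02 over all genes tested. In 0 of the 8 were the 2 groups free of overlap in CPM, as were 0.607% of all genes in the higher and 0.888% in the lower direction.

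**Figure D1:**
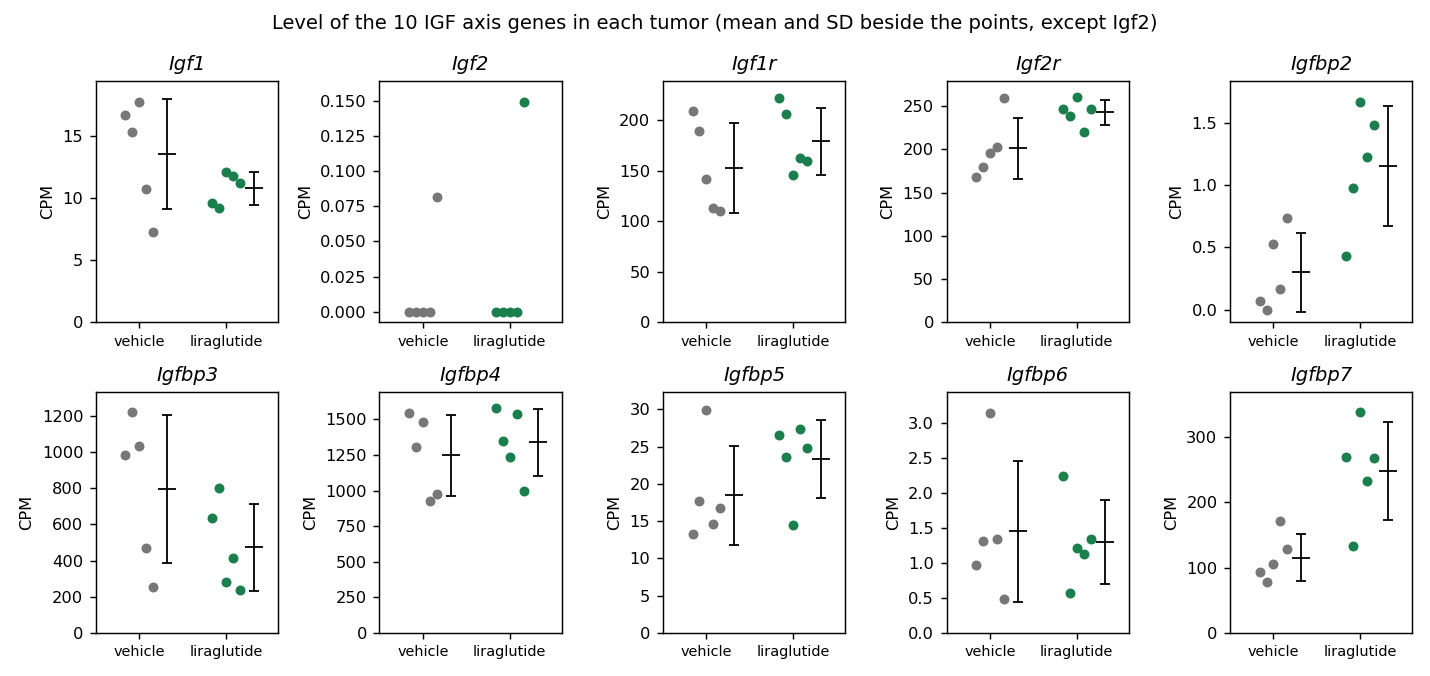
CPM of each of the 10 genes in every tumor, on linear axes, with vehicle tumors in gray, liraglutide tumors in green and the group mean ± SD (n = 5) beside the points, except for Igf2. Igfbp7 sits between 78.4 and 170.8 CPM in vehicle tumors and between 133 and 339 CPM in liraglutide tumors.

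Igfbp7 showed the largest treatment difference among the 8 tested members. Its level in vehicle tumors 1 to 5 was 92.7, 78.4, 105, 170.8 and 128 CPM. In liraglutide tumors 1 to 5 it was 269, 133, 339, 233 and 268 CPM. Liraglutide tumors 1, 3, 4 and 5 lay above every vehicle tumor, and liraglutide tumor 2 lay within the vehicle range, near vehicle tumor 5. The means were 115 ± 36.1 CPM with vehicle and 248 ± 74.9 CPM after liraglutide (SD, n = 5 each). The log2 fold change was 1.11 (SE 0.26, 95% interval 0.55 to 1.68), with an unadjusted p of 0.00117 and an adjusted p of 0.482 by edgeR. The difference was larger than the spread between tumors in a two-sided exact permutation test of this single gene (p = 0.0159, where 5 against 5 allow no less than 0.00794). DESeq2 gave 1.12 with an adjusted p of 0.0194, so whether the gene passed after correction depended on the tool. Leaving out any 1 tumor gave a log2 fold change of 0.98 to 1.31, with an unadjusted edgeR p under 0.05 in all 10 fits. Igfbp7 shares 747 of its 5449 exon bases (13.7%) with Polr2b, an RNA polymerase II subunit gene on the opposite strand. Polr2b stood at 120 ± 11.1 and 119 ± 12.1 CPM (SD, n = 5 each).

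The ligands were scarce. Igf1, the main ligand of adult tissue, measured 16.7, 15.3, 17.7, 10.7 and 7.25 CPM in vehicle tumors 1 to 5. It measured 9.59, 9.22, 12.1, 11.8 and 11.2 CPM in the liraglutide tumors. Vehicle tumors 1 to 3 lay above all liraglutide tumors and vehicle tumor 5 below them. The means were 13.5 ± 4.43 and 10.8 ± 1.32 CPM (SD, n = 5 each), a log2 fold change of −0.33 (SE 0.23, 95% interval −0.83 to 0.18, edgeR adjusted p = 0.649). It was −0.21 without vehicle tumor 3, −0.48 without vehicle tumor 5 (edgeR unadjusted p = 0.0193) and −0.12 with 1 surrogate variable. Igf2, the fetal ligand of an imprinted locus, had 1 count in vehicle tumor 5, 2 counts in liraglutide tumor 5 and 0 in the rest, all under the floor of 3 counts. Of its 6162 exon bases, 3599 (58.4%) are shared with Gm49394 on the same strand, which had 0 counts in every tumor. How reads over 2 genes were counted is not given in the sources used here, and a level of Igf2 below the floor cannot be told from reads left out for this reason. H19, the noncoding RNA next to Igf2, was detected at 10.8 ± 6.16 CPM in vehicle tumors and 12.4 ± 5.62 CPM in liraglutide tumors (SD, n = 5 each), with an edgeR adjusted p of 0.871.

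Of the receptors, Igf2r was higher with liraglutide at an unadjusted p just under 0.05 and Igf1r did not reach it, an order that changed when some cell type marker lists entered the fit. Igf2r measured 169, 179.5, 196, 203 and 260.1 CPM in vehicle tumors 1 to 5. In liraglutide tumors it measured 246.5, 239, 261, 220.5 and 247 CPM. All liraglutide tumors lay above vehicle tumors 1 to 4, while vehicle tumor 5 lay among them. The means were 201 ± 35.5 and 243 ± 14.8 CPM (SD, n = 5 each), a log2 fold change of 0.27 (SE 0.12, 95% interval 0.01 to 0.53, edgeR unadjusted p = 0.0448, adjusted p = 0.515). The exact permutation p was 0.0476. With 1 tumor left out, the edgeR unadjusted p was under 0.05 in 2 of 10 fits, at 0.00180 without vehicle tumor 5 (log2 fold change 0.39) and 0.0389 without liraglutide tumor 4, and it reached 0.110 without vehicle tumor 1. With the mean log2 CPM of a marker list as a covariate, it was under 0.05 in 3 of 9 fits. The log2 fold change of Igf2r was then 0.13 (SE 0.11, edgeR unadjusted p = 0.264) with tumor epithelium and 0.17 (SE 0.12, edgeR unadjusted p = 0.174) with leukocyte markers.

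Igf1r, the signaling receptor, measured 209, 189.5, 142, 113 and 110.3 CPM in vehicle tumors and 222, 206, 145, 163 and 159 CPM in liraglutide tumors 1 to 5. The groups overlapped over most of their range, with vehicle tumors 4 and 5 lowest of all. The means were 153 ± 44.7 and 179 ± 33.0 CPM (SD, n = 5 each), a log2 fold change of 0.23 (SE 0.20, 95% interval −0.21 to 0.67, edgeR adjusted p = 0.705). It was 0.14 without vehicle tumor 5 and 0.37 without vehicle tumor 1. With 1 surrogate variable in the fit it came to 0.50 (SE 0.09, edgeR adjusted p = 0.231). With tumor epithelium markers as a covariate the log2 fold change of Igf1r was 0.63 (SE 0.11, edgeR unadjusted p = 0.000143, adjusted p = 0.362), and with leukocyte markers 0.59 (SE 0.14, edgeR unadjusted p = 0.00142, adjusted p = 0.595).

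Igfbp3, the main IGF carrier of serum, had the widest spread of the abundant members. Vehicle tumors 1 to 5 measured 986, 1222, 1036, 470.4 and 256 CPM. Liraglutide tumors 1 to 5 measured 634, 802, 281, 414 and 237 CPM. The 5 tumors with the highest Igfbp3, vehicle 1, 2 and 3 and liraglutide 1 and 2, were also the 5 with negative values on the first principal component. The means were 794 ± 410 and 474 ± 240 CPM (SD, n = 5 each), a log2 fold change of −0.75 (SE 0.44, 95% interval −1.72 to 0.22, edgeR adjusted p = 0.598). The difference was within the spread between tumors (exact permutation p = 0.230). With 1 surrogate variable in the fit the log2 fold change came to −0.15. It was −0.97 without vehicle tumor 5 (edgeR unadjusted p = 0.0268) and −1.01 without liraglutide tumor 2 (edgeR unadjusted p = 0.0468). Without vehicle tumor 2 it was −0.54. Of the 10 fits with 1 tumor left out, 2 had an edgeR unadjusted p under 0.05.

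Igfbp4, which holds IGFs until the protease PAPP-A cuts it, measured between 927 and 1548 CPM in vehicle tumors and between 997 and 1581 CPM in liraglutide tumors. The log2 fold change was 0.10 (SE 0.18, 95% interval −0.29 to 0.49), between 0.02 without vehicle tumor 4 and 0.20 without liraglutide tumor 5, and 0.30 with 1 surrogate variable. With tumor epithelium markers as a covariate the log2 fold change of Igfbp4 was 0.43 (SE 0.12, edgeR unadjusted p = 0.00469, adjusted p = 0.362), and with leukocyte markers 0.39 (SE 0.14, edgeR unadjusted p = 0.0183, adjusted p = 0.599). Igfbp5, a carrier that binds matrix, measured 13.3 to 29.9 CPM with vehicle and 14.4 to 27.4 CPM with liraglutide, a log2 fold change of 0.34 (SE 0.24, 95% interval −0.19 to 0.87). Without vehicle tumor 3, the highest of all 10, it was 0.58 (edgeR unadjusted p = 0.0117). Igfbp6, which prefers IGF-2, had only 6 to 30 counts per tumor, with means of 1.45 ± 1.01 and 1.30 ± 0.605 CPM (SD, n = 5 each). Its log2 fold change of −0.13 (SE 0.47) had no stable sign, since it was 0.35 without vehicle tumor 3 and 0.06 without liraglutide tumor 2. With all tumors and treatment alone, the edgeR adjusted p of these 3 genes lay between 0.649 and 0.939.

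Igfbp2, a carrier known to fall with obesity in blood, was low in every tumor. It measured 0.0691, 0, 0.525, 0.167 and 0.733 CPM in vehicle tumors 1 to 5. Vehicle tumors 1, 2 and 4 had 1, 0 and 2 counts, under the floor of 3 counts. In the liraglutide tumors Igfbp2 measured 0.432, 0.980, 1.67, 1.23 and 1.49 CPM. Liraglutide tumors 2 to 5 lay above all vehicle tumors. In all, 17 counts with vehicle and 72 with liraglutide gave a ratio of 4.18 (95% counting interval 2.44 to 7.56, which leaves out the spread between tumors). The exact permutation p was 0.0238. In the edgeR fit of every gene with at least 1 count, the log2 fold change was 1.94 (SE 0.64) with an unadjusted p of 0.00866 and an adjusted p of 0.620. Vehicle tumor 5 held 9 of the 17 vehicle counts. Igfbp2 passed the filter in 6 of the fits with 1 tumor left out. Its log2 fold change in these ran from 1.65 without vehicle tumor 1 to 2.645 without vehicle tumor 5.

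**Figure D2:**
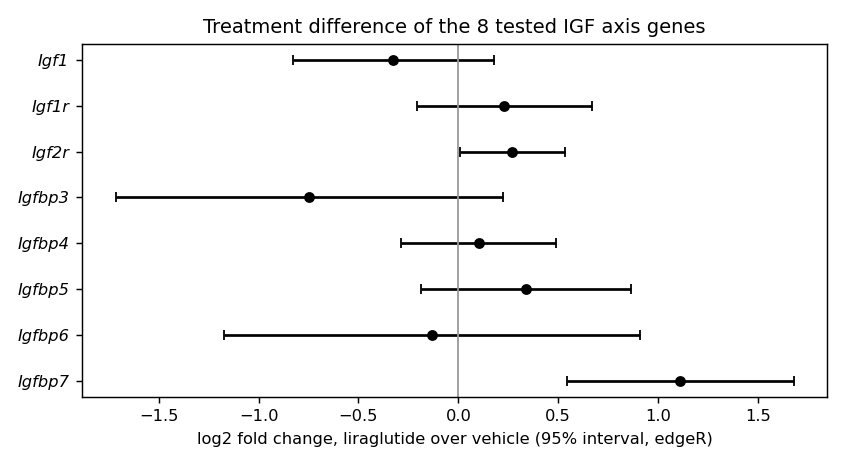
Log2 fold change, liraglutide over vehicle, with its 95% interval for the 8 tested members (edgeR, 5 tumors per group). The interval of Igfbp7, from 0.55 to 1.68, and that of Igf2r, from 0.01 to 0.53, lie above 0, and the other 6 span it.

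Igfbp7 was next set beside the other binding proteins within each tumor, which takes out the scaling between libraries. Of the summed CPM per kb of Igfbp2 to Igfbp7, Igfbp7 made up 2.63%, 2.19%, 2.95%, 8.33% and 7.35% in vehicle tumors 1 to 5. Its share in liraglutide tumors 1 to 5 was 8.35%, 4.37%, 14.7%, 8.35% and 14.2%. Liraglutide tumors 1, 3, 4 and 5 lay above all vehicle tumors, and tumors 1 and 4 did so by a narrow margin. The mean share was 4.69% ± 2.91 in the vehicle group and 9.98% ± 4.37 in the liraglutide group (SD, n = 5 each), with an exact permutation p of 0.0397. This p rested on few tumors, since it was 0.0952 without liraglutide tumor 3 or 5, 0.0873 without vehicle tumor 1, 2 or 3, and 0.0635 without liraglutide tumor 1 or 4. The share contains the level of Igfbp7, so its test is not independent of that of the level itself. Igfbp4 and Igfbp3 made up most of the pool, with mean shares of 55.1% ± 8.83 and 39.4% ± 11.3 with vehicle and of 62.7% ± 5.30 and 26.2% ± 9.11 with liraglutide (SD, n = 5 each). Igfbp2, Igfbp5 and Igfbp6 each made up at most 1.19% in every tumor. The whole pool was 530.3 ± 168 CPM per kb in the vehicle group and 487 ± 100.3 in the liraglutide group (SD, n = 5 each), with an exact permutation p of 0.611.

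**Figure D3:**
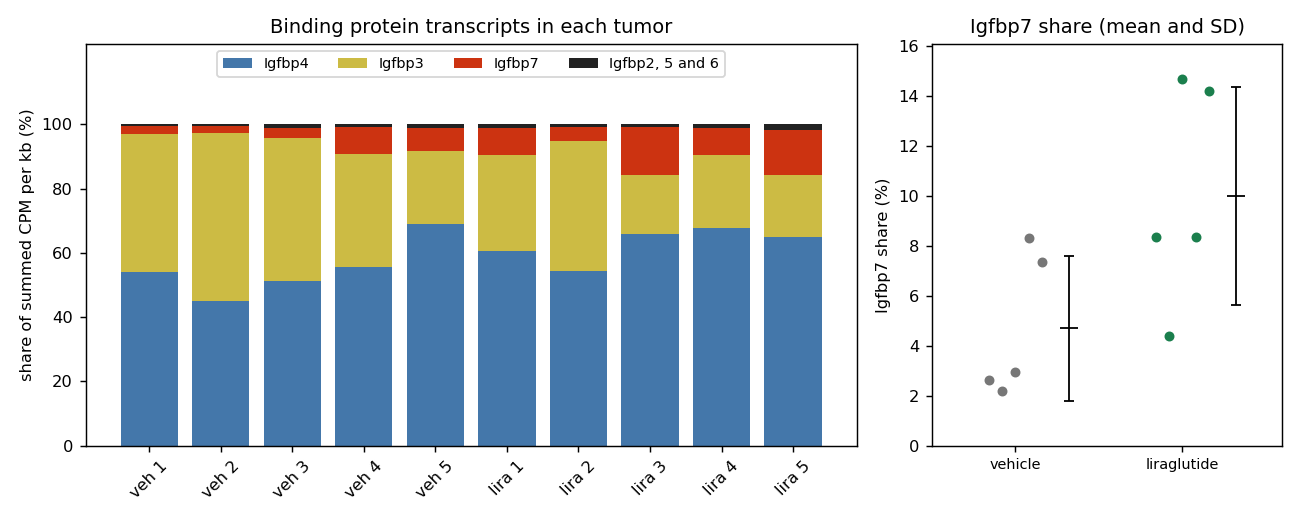
Left, share of each binding protein in the summed CPM per kb of Igfbp2 to Igfbp7, in percent, 1 bar per tumor. Right, the Igfbp7 share alone with the group mean ± SD (n = 5), which was 4.69% in vehicle and 9.98% in liraglutide tumors.

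Igfbp7 was also set against the median of the other 9 genes in the same tumor. In 9 of 10 tumors that median was the value of Igfbp5, and in 1 that of Igf1, so the comparison was close to one of Igfbp7 with Igfbp5. Its log2 CPM exceeded the median by 2.57 ± 0.68 with vehicle and by 3.37 ± 0.75 after liraglutide (SD, n = 5 each). The gap was larger with liraglutide by 0.80 on the log2 scale, with an exact permutation p of 0.119, and 1 of 5 liraglutide tumors exceeded all vehicle tumors. Without vehicle tumor 4 the value was 1.04 (exact permutation p = 0.0397). Gene by gene, the log2 ratio of Igfbp7 to the other member was higher with liraglutide by 1.79 for Igfbp3, 1.36 for Igf1, 1.14 for Igfbp6, 0.99 for Igfbp4, 0.84 for Igf1r, 0.82 for Igf2r and 0.74 for Igfbp5. It was lower by 0.59 for Igfbp2. Each of these 8 differences follows in part from Igfbp7 itself, so they are not independent of one another. Liraglutide tumors above all vehicle tumors numbered 4 of 5 for the ratios to Igf1 and to Igf2r, 3 for Igfbp3, and 2 or fewer for the others. The exact permutation p, not adjusted over the 8 ratios, was 0.0159 for Igf2r, 0.0238 for Igf1, 0.0476 for Igfbp3, and 0.0556 or more for the other 5.

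The other genes of the pathway came from lists of receptors, carriers, proteases, imprinted neighbors, signaling proteins and targets. Of 86 listed genes outside the members, 76 were tested, 48 were higher and 28 lower. At an unadjusted p under 0.05, 12 were higher and 1 lower, against 3.97% and 5.62% of all genes tested. By edgeR 0 had an adjusted p under 0.05. Their median log2 fold change was 0.11, against −0.02 for all genes, of which 8280 were higher and 9184 lower.

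Among receptors, Insr, the insulin receptor, which can pair with IGF1R, measured 157, 151, 137, 148 and 155 CPM in vehicle tumors 1 to 5. It measured 185, 164, 172, 180.2 and 189.9 CPM in the liraglutide tumors. All 5 liraglutide tumors were above all 5 vehicle tumors, a separation in the higher direction seen in 0.607% of all genes. The means were 149.6 ± 7.86 and 178 ± 10.5 CPM (SD, n = 5 each), a log2 fold change of 0.25 (SE 0.08, edgeR unadjusted p = 0.00968, adjusted p = 0.482). Its exact permutation p was 0.00794, the smallest that 5 against 5 can give. Ins1 and Ins2, which encode insulin, had 0 counts in every tumor, and the insulin receptor-related gene Insrr had 41 counts in all.

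Of the 38 tested adaptor and PI3K-AKT genes, 25 were higher and 13 lower, and the median log2 fold change was 0.05. Those higher at an unadjusted p under 0.05 were 7. Irs1, an adaptor of both receptors, stood at 52.0 ± 17.2 and 76.6 ± 12.9 CPM (SD, n = 5 each), a log2 fold change of 0.56. Irs2, the other main adaptor, stood at 61.4 ± 14.5 and 91.4 ± 25.6 CPM (SD, n = 5 each), a log2 fold change of 0.58, and liraglutide tumor 2, at 57.0 CPM, was the lowest of its group. Tsc2, which restrains mTORC1, stood at 102 ± 8.90 and 126 ± 12.8 CPM (SD, n = 5 each), a log2 fold change of 0.31, and its groups did not overlap. The log2 fold change was 0.45 for Pik3r1 and 0.51 for Pik3r3, which encode regulatory subunits of PI3K. It was 0.23 for Ptpn1 and 0.61 for Ptprf, which encode phosphatases that act on the insulin receptor. Rack1, a ribosomal scaffold that also binds IGF1R, was the 1 lower gene, at 671 ± 117 and 495 ± 85.0 CPM (SD, n = 5 each), a log2 fold change of −0.44. The edgeR adjusted p of these 8 genes ran from 0.482 to 0.519.

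Of the 8 tested other carriers and IGFBP-like proteins, 5 were higher and 3 lower. Ccn2, a matrix protein with an IGFBP-like domain, stood at 53.4 ± 15.3 and 85.7 ± 19.9 CPM (SD, n = 5 each), a log2 fold change of 0.68. Htra1, a secreted protease with such a domain, had a log2 fold change of 0.39. Igfbp1, the liver's insulin-regulated carrier, had 2 counts in 1 vehicle tumor and 0 elsewhere, and Igfals, the serum partner of IGFBP3, had 41 counts in all. Of the 8 tested proteases and inhibitors, 3 were higher and 5 lower. Pappa, which encodes PAPP-A, stood at 4.47 ± 0.998 and 7.94 ± 4.31 CPM (SD, n = 5 each), a log2 fold change of 0.83, and 4 of 5 liraglutide tumors were above all vehicle tumors. Its relative Pappa2 had 73 counts in all. The edgeR adjusted p was between 0.482 and 0.503 for Ccn2, Htra1 and Pappa.

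Of the 5 imprinted neighbors and Igf2 mRNA-binding proteins, 3 were higher and 2 lower. Airn, a noncoding RNA that runs antisense to Igf2r from one of its introns, stood at 21.6 ± 6.89 and 37.6 ± 10.7 CPM (SD, n = 5 each). Its log2 fold change was 0.80 (SE 0.24, edgeR unadjusted p = 0.00670, adjusted p = 0.482). The libraries were made with a kit that marks strand, but the strand setting of the counting is not given in the sources used here. Of 16 genes that FOXO factors are known to raise, 11 were higher and 5 lower, with a median of 0.23, and the 2 with an unadjusted p under 0.05 were Insr and Irs2. The 3 receptor candidates of IGFBP7 were Igf1r, Cd93, an endothelial surface protein (log2 fold change 0.15), and Cd81, a tetraspanin (0.39), and 0 of the 3 had an unadjusted p under 0.05 by edgeR.

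**Figure D4:**
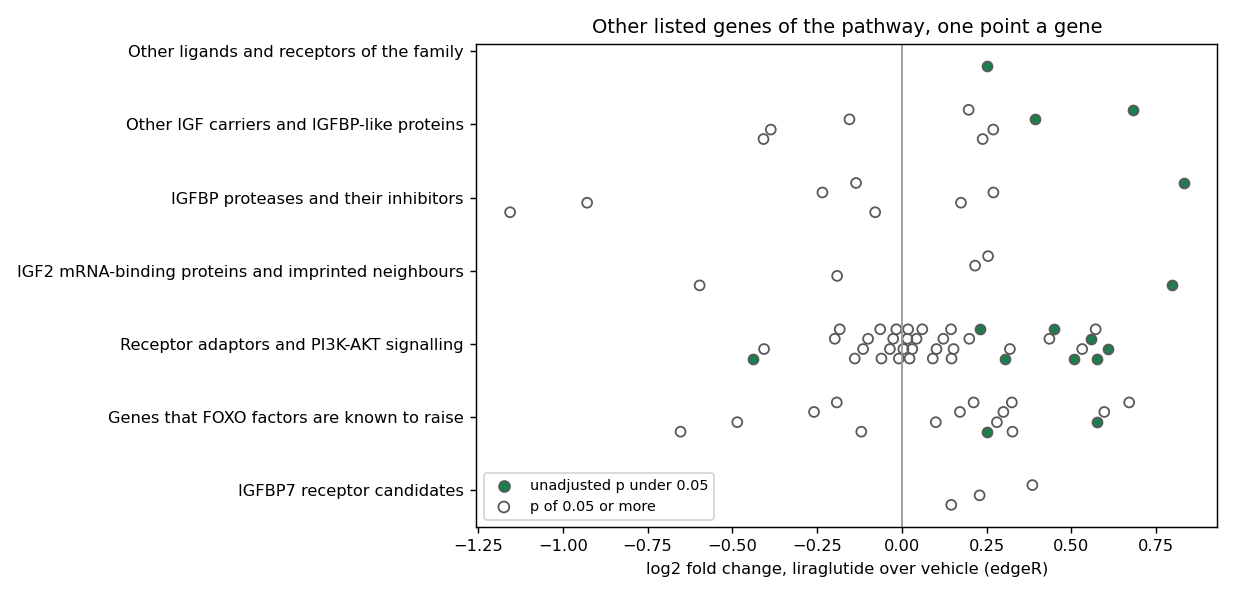
Log2 fold change, liraglutide over vehicle, of each tested gene on the 7 pathway lists, with genes at an unadjusted p under 0.05 (edgeR) filled in green. Igf1r on the last list is a member. Of the 76 genes outside the members, 12 are filled and lie to the right of 0 (Insr and Irs2 are drawn on both of their lists) and 1, Rack1, lies to the left.

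Because the RNA came from mixed tissue, marker genes of 9 cell types were summed in each tumor. The markers of tumor epithelium summed to between 4795 and 10660 CPM in vehicle and between 5256 and 7749 CPM in liraglutide tumors. Krt8, Krt18, Cdh1 and Krt19 were the most abundant of them. Of the lung genes, Sftpb averaged 274.5 and 255.5 CPM and Nkx2-1 46.3 and 91.8 CPM in the vehicle and liraglutide groups. Sftpc was low, at 1.15 and 2.84 CPM, and so was Napsa, at 1.03 and 1.70 CPM. Epcam averaged 2.5 and 3.0 CPM, and Cldn4 had 24 counts in all and was not tested. No marker of any list was at 0 in all tumors. Igfbp7 is known in vessels and stroma. The 15 endothelial markers summed to between 330.5 and 616.5 CPM with vehicle and between 357.5 and 552.5 CPM with liraglutide, 10 higher and 5 lower. The 11 pericyte and smooth muscle markers summed to between 294.5 and 414 CPM with vehicle and between 275 and 566 CPM with liraglutide, 9 higher and 2 lower. The 14 fibroblast markers summed to between 1979 and 4472 CPM and between 2658 and 4409 CPM, 8 higher and 6 lower.

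The sum follows the most abundant markers of a list, so each list was also taken as the mean log2 CPM of its tested markers. That mean counts low and abundant markers alike and follows those that vary most on the log2 scale. For tumor epithelium these include markers near the floor, such as Sftpc, from 0 to 4.85 CPM in vehicle tumors. With this mean as a covariate, 1 list at a time, the log2 fold change of Igfbp7 lay between 0.78 and 1.29 in the 9 fits, with edgeR adjusted p between 0.284 and 0.904. It was lowest with tumor epithelium (0.78) and pericyte and smooth muscle markers (0.81), and was 1.13 with endothelial and 1.21 with fibroblast markers. Igfbp3 kept no direction, since its log2 fold change of −0.75 became 0.12 with tumor epithelium and 0.16 with leukocyte markers as the covariate. In the same 9 fits the log2 fold change ran from −0.44 to −0.01 for Igf1, from 0.19 to 0.63 for Igf1r, from 0.13 to 0.32 for Igf2r, from 0.07 to 0.43 for Igfbp4 and from 0.18 to 0.53 for Igfbp5. By edgeR the lowest adjusted p of these 6 genes was 0.309. With the log2 of the summed CPM as the covariate in place of the mean, the log2 fold change of Igfbp7 lay between 0.88 and 1.32 in 9 fits. That of Igfbp3 then kept its sign, at −0.74 with tumor epithelium, −0.17 with leukocyte and −0.0039 with macrophage sums. That of Igf1 turned to 0.09 with macrophage sums, that of Igf2r was 0.30 with tumor epithelium sums (SE 0.09, edgeR unadjusted p = 0.00477) and that of Igf1r was 0.23. Keratinocyte markers summed to between 9.12 and 21.6 CPM in vehicle tumors, but to 216, 79.9 and 57.2 CPM in liraglutide tumors 2, 4 and 5, and all 6 tested were higher, 5 of them at an unadjusted p under 0.05. Liraglutide tumor 2, with the most, had the lowest Igfbp7 of its group. All 8 tested skeletal muscle markers were higher too, with sums from 39.7 to 262 CPM and from 97.8 to 362 CPM. All 6 tested leukocyte markers were higher, with sums from 50.9 to 128 CPM and from 66.2 to 128 CPM. Macrophage markers were higher for 10 of 12 genes, yet summed to between 664 and 1230 CPM with vehicle and between 703 and 905.5 CPM with liraglutide. Adipocyte markers were higher for 2 of 4 tested genes and summed to at most 115.5 CPM. For none of the 9 sums was the difference between groups larger than the spread between tumors (exact permutation p from 0.0952 to 0.960).

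**Figure D5:**
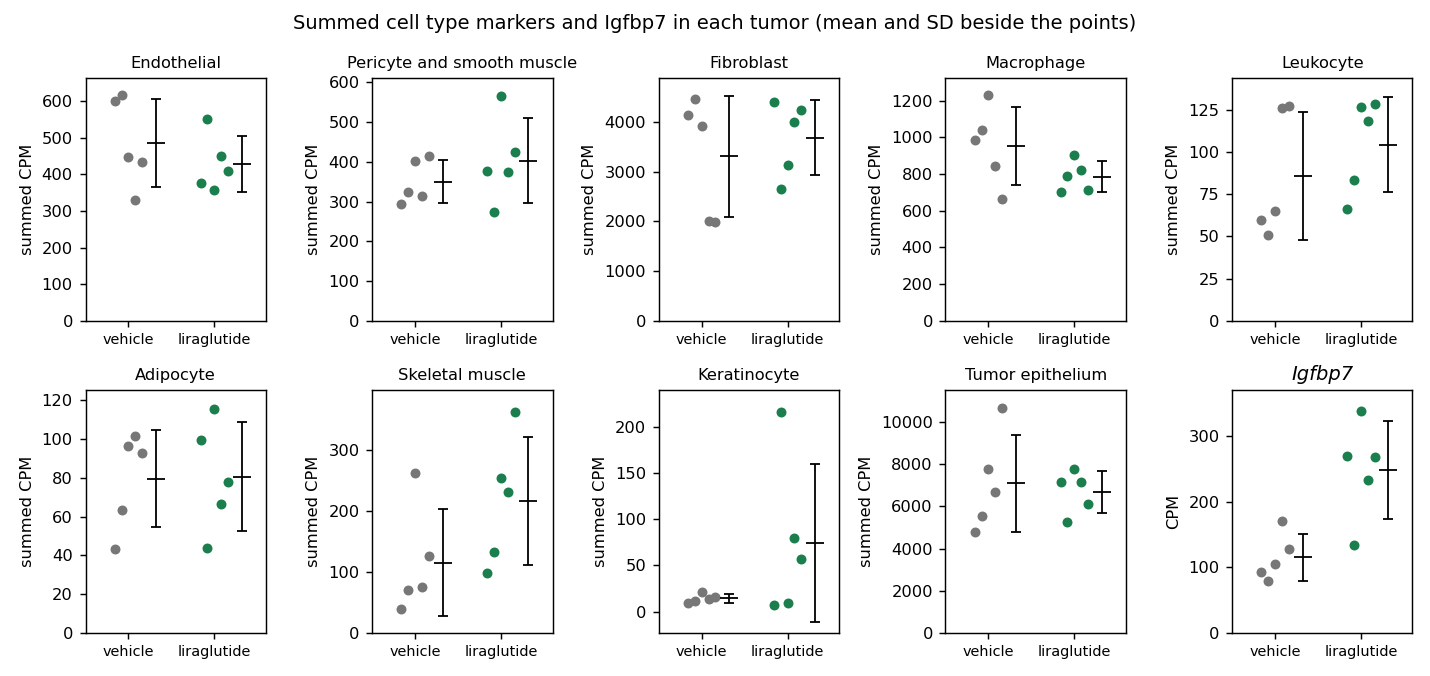
Summed CPM of the marker genes of 9 cell types in each tumor, with Igfbp7 in CPM last, vehicle in gray, liraglutide in green and the mean ± SD (n = 5) beside the points. Endothelial and fibroblast sums overlap widely between groups, and keratinocyte markers reach 216 CPM in liraglutide tumor 2.

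Over the 10 tumors, none of the 45 pairs of members was correlated beyond a Benjamini-Hochberg adjusted permutation p of 0.05, and the smallest adjusted p of r was 0.127. Pooled over both groups, the highest r was that of Igf2r with Igfbp2 (Pearson r = 0.82, Spearman rho = 0.78), which was 0.66 after the group means were taken out. With the group means out, the highest was that of Igf1r with Igfbp3 (r = 0.84, against 0.56 pooled), followed by Igfbp3 with Igfbp4 (r = 0.79, against 0.63 pooled). Igf2r ran against Igf1 (pooled r = −0.79, rho = −0.60) and against Igfbp3 (pooled r = −0.77, rho = −0.82), and with Igfbp7 (pooled r = 0.74, or 0.47 after the group means were taken out). Igf1r and Igfbp4 had r = 0.74 and rho = 0.79, but r was 0.39 without the 2 tumors farthest from the median of Igf1r.

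Each of 9 members, Igf2 left out, was also set against the 9 marker lists, which made 81 pairs for the mean log2 CPM of the tested markers and 81 for the log2 of the summed CPM, each set adjusted on its own. The pairs with an adjusted permutation p under 0.05 depended on the measure. With the means, 0 pairs passed by Pearson's r and 2 by Spearman's rho, both of Igfbp2. They were with leukocyte markers (rho = 0.927, r = 0.816, adjusted permutation p of rho = 0.0292) and with skeletal muscle markers (rho = 0.903, r = 0.872, adjusted permutation p of rho = 0.0348). Without the 2 tumors farthest from the median of the list, r was 0.667 and 0.827. Igfbp2 was under the floor of 3 counts in vehicle tumors 1, 2 and 4, so its lowest ranks rest on very few counts.

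With the sums, 3 pairs passed by r and 2 of these by rho. Igfbp3 was lower where leukocyte sums were higher (r = −0.922, adjusted permutation p = 0.0385, rho = −0.964, adjusted permutation p of rho = 0.00405). Igf1 was higher where macrophage sums were higher (r = 0.908, adjusted permutation p = 0.0332, rho = 0.903, adjusted permutation p of rho = 0.0401). Igfbp2 was higher with skeletal muscle sums by r alone (r = 0.858, adjusted permutation p = 0.0400, rho = 0.842, adjusted permutation p of rho = 0.0959). Without the 2 tumors farthest from the median of the list, r was −0.873, 0.839 and 0.802 for these pairs. Igfbp2 with leukocyte sums did not pass (rho = 0.745, adjusted permutation p of rho = 0.233), and neither did Igf1 with macrophage means (r = 0.181) nor Igfbp3 with leukocyte means (r = −0.861, adjusted permutation p = 0.0921).

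Other pairs did not pass by either measure. Igfbp3 with tumor epithelium had r = −0.878 by the means (adjusted permutation p = 0.0547) and −0.566 by the sums. Igfbp7 had r = 0.784 with tumor epithelium by the means (adjusted permutation p = 0.127) and 0.296 by the sums. With pericyte and smooth muscle markers Igfbp7 had r = 0.670 and 0.628, with endothelial markers −0.258 and −0.761, and with fibroblast markers −0.06 and 0.01, by the means and the sums in turn.

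Among 13138 protein-coding genes, those whose log2 CPM was most like each member over the 10 tumors were found as a description. Igfbp7 was closest to Ano1 (r = 0.989), Slc44a2 (0.985) and Tm9sf4 (0.975), and 125 genes had an r over 0.9 with it. Igfbp3 was closest to Ctsl (r = 0.988), Calu (0.983) and Sccpdh (0.982), with 366 genes over 0.9. Igf1 was closest to Dennd2a (r = 0.961), Igf1r to Atf7 (0.976), Igf2r to P3h1 (0.961) and Igfbp4 to Npnt (0.957). Igfbp2 was closest to Cd2, a T cell surface gene (r = 0.958), Igfbp6 to Hdac9 (0.941) and Igfbp5 to Fndc4 (0.892). Fewer genes had an r over 0.9 with the other members, 35 for Igf1r, 32 for Igf2r and 13 for Igfbp2. The number was 10 for Igfbp6, 8 for Igfbp4, 5 for Igf1 and 0 for Igfbp5. Why these genes ran together was not tested.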

How the data were processed

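The authors depleted ribosomal RNA from total RNA of frozen tumor fragments, made strand-marking libraries, sequenced read pairs, aligned them with Bowtie 1.0.1 and TopHat 2.0.13 and used featureCounts to count them by gene. They deposited raw counts without normalization, and all 10 columns were used. The study's methods name GRCm39, while the submitters' processing notes list mm10 and GRCh38, so the build behind the counts is unsettled. The annotation release, the strand setting and how reads with several matching places or genes were treated are not given in the sources used here. Groups came from the sample titles and treatment labels.

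Of the identifiers, 93.38% matched GENCODE M39 on GRCm39 without their version (98.31% of counts, 35 with the same version), which gave symbols, positions and merged exon lengths. Promoter windows came from RefSeq on GRCm38.p6.

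In R 4.3.3, genes kept by filterByExpr of edgeR 4.0.16 were TMM-normalized and tested by the quasi-likelihood F test with treatment alone, and p-values were adjusted over all 17464 genes. Levels are CPM with TMM, and log2 CPM used a prior count of 2. Single values were set against each other in two-sided exact permutation tests over tumors, and correlations by 100000 permutations. DESeq2 1.42.0, limma-voom 3.58.1, other scalings, filters and covariates, and leaving out each tumor were alternatives. Keratinocyte, pericyte and smooth muscle, leukocyte, adipocyte, skeletal muscle and tumor epithelium markers as covariates, and the log2 of each list's summed CPM in place of its mean log2 CPM, and the length division for the gap of Igfbp7 to the other members, were added after seeing the data. The step was tested on simulated data.

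The named genes were all members, listed pathway genes with an unadjusted p under 0.05 together with fixed receptors, adaptors, carriers and proteases, and the genes of highest r with each member, of which 1 to 3 are given. The members and lists were chosen with earlier results of these data known. Counting intervals and floors cover counting error alone. Within a group, tumors differed at least 8.38 times more than counting alone gives (chi-square per degree of freedom), so each was taken as a separate sample. The labels do not say that each tumor came from its own mouse. One listed keratinocyte marker, Lor, had no match.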

Additional observations from a re-analysis of the deposited data

Results flagged for a closer look

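Liraglutide tumor 3 stood apart from its group for Igfbp5, at 14.4 CPM against 23.6 to 27.4 CPM in the other 4. On the log2 CPM scale (prior count 2), its gap to the nearest tumor was 0.767 of the group's range, above the 95% critical value of 0.71 for 5 samples in Dixon's test. It was the 1 such tumor among 22 groups tested, where chance gives about 1 in 20. The same tumor had the highest Igfbp7 of all 10, at 339 CPM.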

How the results depend on the processing

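Of 387 alternative values, 349 were classed as unchanged. For the fold changes of members this took the sign and the side of an adjusted p of 0.05, which edgeR reached for 0 genes in every fit. Igf2r was thus unchanged in 36 of 36, though its unadjusted p was under 0.05 in 2 of 10 fits with 1 tumor left out. A count of members that went from 2 to 3 was also classed as unchanged. The total is therefore no measure of stability. DESeq2 called 45 genes at an adjusted p under 0.05, against 0 by edgeR and limma-voom. Of the 8 tested members, 2 had an unadjusted p under 0.05 as reported, Igf2r and Igfbp7. With macrophage, keratinocyte or pericyte and smooth muscle markers as a covariate, as means or as sums, 1 did, Igfbp7. With 1 surrogate variable, with leukocyte markers as means or sums, or with tumor epithelium means, 3 did, Igf1r, Igfbp4 and Igfbp7. With fibroblast markers as means or sums 3 did, Igf1, Igf2r and Igfbp7. With skeletal muscle markers as means or sums, or with endothelial sums, 2 did, but these were Igf1r and Igfbp7. Over all 17464 genes, the number at an unadjusted p under 0.05 moved too. It was 694 higher and 981 lower as reported, 938 and 1063 with 1 surrogate variable, and 1257 and 1099 with fibroblast means. With leukocyte means it was 599 and 758, and with pericyte and smooth muscle means 369 and 561. The keratinocyte, pericyte and smooth muscle, leukocyte, skeletal muscle and tumor epithelium means and all sums were added after seeing the data. Leaving out 1 tumor at a time, the count of members came to between 1 and 4 (4 without vehicle tumor 5). Without vehicle tumor 3 it stayed at 2 with Igfbp5 in place of Igf2r, and without liraglutide tumor 2 with Igfbp3 in place of Igf2r. The log2 fold change of Igfbp3 was 0.164 with leukocyte and 0.116 with tumor epithelium means as a covariate, and that of Igf1 was 0.0929 with macrophage sums. The log2 fold change of Igfbp6 was 0.0124 by limma-voom, 0.0280 with endothelial, 0.251 with leukocyte and 0.207 with tumor epithelium markers as a covariate, 0.485 with macrophage, 0.108 with leukocyte and 0.0415 with keratinocyte sums, and −0.42 to 0.35 with each tumor left out (0.06 without liraglutide tumor 2). That of Igfbp7 lay between 0.78 and 1.32 where all tumors were kept, and between 0.98 and 1.31 with each tumor left out, where its edgeR adjusted p was 0.124 or more. The Igfbp7 share of the pool was higher by 5.30 percentage points as reported, by 6.43 when levels were not divided by gene length (exact permutation p = 0.0556), and by 4.12 to 6.70 with each tumor left out. The gap of Igfbp7 to the median of the other members was 0.51 to 1.04 larger with each tumor left out (exact permutation p = 0.0397 without vehicle tumor 4). With CPM divided by gene length, also added after seeing the data, it was 0.74 larger (exact permutation p = 0.143). The causes were not tested. Scaling by library size alone moved the median log2 fold change of all genes to 0.04, with 990 genes higher and 619 lower at an unadjusted p under 0.05.

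Vehicle and liraglutide tumors share the numbers 1 to 5. Deviations of same-numbered tumors had r of 0.354, 0.565, −0.0753, 0.0681 and 0.389, with a mean of 0.26 against −0.0682 for other pairs. Of 10 tumors, 3 correlated best with their own number. These values do not settle whether the numbers pair the samples, and the reported fit did not use the numbers. With the number as a replicate block, edgeR called 0 genes. Of the 17464 genes in this fit, 1309 were higher and 1276 lower at an unadjusted p under 0.05, against 694 and 981 in the reported fit. In that fit 4 members had an unadjusted p under 0.05, namely Igfbp7 with a log2 fold change of 1.10 (edgeR adjusted p = 0.240), Igf2r with 0.28, Igf1r with 0.26 and Igfbp3 with −0.67 (edgeR unadjusted p = 0.0246). In the replicate block form of the exact permutation test, the Igfbp7 share gave 5.30 (p = 0.0625, the smallest that 5 pairs allow).

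Igf2 did not pass the filter of the reported fit, and its fold change in alternatives without that filter is not given, since it stayed under the floor in every tumor. Igfbp2 passed the filter only in some alternatives. The gap of Igfbp7 as reported already used CPM not divided by gene length, so leaving out the division gave no separate value. Depth limits Igf2, Igfbp2 and Igfbp6, whose counts are few. For the other members the spread between 5 tumors per group sets the precision.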
